A study of Mus musculus with 6 samples.

Results

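The 38 genes described here are imprinted, that is, expressed mainly or only from the copy inherited from 1 parent in at least some tissues, and they were taken by symbol from the 23420 genes of the count table. All 38 symbols were present, in 15 imprinted clusters or single loci. The list was chosen by symbol with results of this comparison in view, and the near absence of Kcnq1 reads under 1 of the labels was among the values that chose it. The values of Kcnq1 are therefore a description with no test, and the values of the other genes come from the same comparison, so that no count over the list supports anything beyond itself. Of the 38 genes, 7 had no read in any library, 12 had reads but did not pass the filter on low counts (filterByExpr of edgeR), and 19 were tested.

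Imprinted genes lie in clusters, each under an imprinting control region whose DNA methylation differs between the maternal and the paternal copy. In the Kcnq1 domain, the paternal copy makes the long non-coding RNA Kcnq1ot1, and the neighbouring genes are silenced on that copy, some of them only in the placenta. Many imprinted genes act on growth.

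RNA-seq was performed on bone marrow-derived mesenchymal stromal cells (MSCs) of female C57BL/6 mice aged 6 to 8 weeks, expanded in culture and transduced at passage 5. The 3 libraries labelled Ctl MSC came from cells given the empty AP2 retroviral backbone, which carries eGFP, and the 3 labelled MSC-TPr from cells given the same backbone with the thymoproteasome subunits β1i (Psmb9), β2i (Psmb10) and β5t (Psmb11). Nothing states that the libraries of a group came from separate mice or transductions, so p-values measure only the spread between these libraries. The question asked of the comparison was how expression of the thymoproteasome changes the transcriptome of MSCs.

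The libraries held from 16158756 to 22158887 reads on genes, and 3 reads, taken as the limit of detection, were worth 0.139 to 0.181 CPM (the read count relative to the total of the library, scaled by the TMM method of edgeR), which covers counting error only. For each transduced gene the groups overlapped, and their summed level ran from 9.32 to 31.3 CPM under the Ctl MSC label and from 9.74 to 18.9 CPM under the MSC-TPr label. Most of the sum was Psmb10, at 27.8, 8.81 and 8.38 CPM and 8.97, 17.3 and 15.2 CPM. Psmb11 had 2, 4 and 2 reads under the Ctl MSC label and 4, 6 and 1 under the MSC-TPr label, and did not pass the filter. Each direction below is therefore one between library labels. The mean log2 CPM of 15 cell division markers ranged from 6.59 to 6.71 in Ctl MSC 1, MSC-TPr 2 and MSC-TPr 3, and from 3.33 to 3.37 in the other libraries. Ctl MSC 1 therefore resembled MSC-TPr 2 and 3 in this measure, and MSC-TPr 1 resembled Ctl MSC 2 and 3. The results are given with and without the libraries numbered 1. Without these libraries, the MSC-TPr label coincides with high cell division markers, and the 2 cannot be told apart. That fit called 40.0% of all genes tested, and each value from it below carries these limits. Of 8 MSC markers, 7 passed the filter, whereas Thy1 (CD90) had 1 read in all 6 libraries together. The sum of the 8 ran from 1165 to 3244 CPM under the Ctl MSC label and from 728 to 1902 CPM under the MSC-TPr label, and 5 of the 7 had log2 fold changes below 0, with a median of −0.63. Nt5e (CD73), picked out after its values were seen, was at 16.3 ± 4.54 and 4.03 ± 1.30 CPM (SD, n = 3 each) without overlap (edgeR adjusted p = 0.079). The sum of the blood and macrophage markers, 6 of 8 present in the table, was 11.2 to 14.5 CPM under the Ctl MSC label and 12.9 to 17.5 CPM under the MSC-TPr label, with Ptprc at 0 in 5 of the 6 libraries, and the sum of the 6 endothelial markers was 0.785 to 3.09 and 1.67 to 3.32 CPM. The sums of each list overlapped between the labels, and their part in the results was not tested. In bulk RNA, fewer cells that express a gene and less RNA per cell cannot be told apart.

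The start regions of 4 of the genes are shown first, because imprinting works through methylation of CpG sites, in some genes close to a start. Each is 300 bases long, 250 before and 50 after a transcription start (RefSeq, GRCm38.p6, which is the mm10 assembly), printed 5′ to 3′ on the strand of the gene with every CpG in capitals. Methylation was not measured in these libraries. Grb10 has an upstream and a downstream start in the table, at chr11:12037371-12037670 and chr11:12027922-12028221 on the minus strand. Plagl1 lies at chr10:13090582-13090881 and the Mest window shown, 1 of 3 in the table, at chr6:30737800-30738099, both on the plus strand, and Kcnq1ot1 at chr7:143296498-143296797 on the minus strand.
Grb10 upstream: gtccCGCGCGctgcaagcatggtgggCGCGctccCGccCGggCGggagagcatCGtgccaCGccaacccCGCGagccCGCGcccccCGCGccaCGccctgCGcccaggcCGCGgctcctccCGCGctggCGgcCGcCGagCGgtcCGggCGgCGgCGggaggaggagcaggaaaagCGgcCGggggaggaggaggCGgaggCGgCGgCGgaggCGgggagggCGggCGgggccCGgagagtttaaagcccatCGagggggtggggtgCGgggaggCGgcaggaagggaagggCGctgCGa
Grb10 downstream: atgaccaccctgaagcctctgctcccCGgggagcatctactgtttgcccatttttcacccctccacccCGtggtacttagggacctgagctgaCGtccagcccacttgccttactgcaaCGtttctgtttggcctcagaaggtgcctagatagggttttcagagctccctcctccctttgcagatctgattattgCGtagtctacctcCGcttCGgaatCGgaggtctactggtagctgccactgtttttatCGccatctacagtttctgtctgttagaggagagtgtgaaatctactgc
Plagl1: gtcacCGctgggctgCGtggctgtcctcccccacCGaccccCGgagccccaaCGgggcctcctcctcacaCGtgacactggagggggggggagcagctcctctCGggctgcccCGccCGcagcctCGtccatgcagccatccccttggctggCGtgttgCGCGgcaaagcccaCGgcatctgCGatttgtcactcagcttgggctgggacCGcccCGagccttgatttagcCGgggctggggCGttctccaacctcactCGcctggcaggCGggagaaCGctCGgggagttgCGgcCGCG
Mest: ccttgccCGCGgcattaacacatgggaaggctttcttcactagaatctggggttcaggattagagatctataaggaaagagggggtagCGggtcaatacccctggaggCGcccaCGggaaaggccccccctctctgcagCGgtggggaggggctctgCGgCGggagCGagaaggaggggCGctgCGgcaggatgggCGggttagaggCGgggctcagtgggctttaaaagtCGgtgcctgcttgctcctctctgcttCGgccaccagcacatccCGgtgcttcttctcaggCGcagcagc
Kcnq1ot1: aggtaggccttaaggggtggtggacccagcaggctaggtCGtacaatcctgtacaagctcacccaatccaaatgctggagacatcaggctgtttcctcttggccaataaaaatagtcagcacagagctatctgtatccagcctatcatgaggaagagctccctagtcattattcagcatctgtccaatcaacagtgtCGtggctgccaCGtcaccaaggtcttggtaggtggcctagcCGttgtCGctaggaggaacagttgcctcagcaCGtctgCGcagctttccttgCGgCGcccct

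The upstream Grb10 window held 45 CpGs, and 1.93% of the 32851 windows of the table held as many or more. Plagl1 held 26 (16.9%), Mest 17 (31.4%), and the downstream Grb10 window and Kcnq1ot1 held 9 each (45.8%), against a median of 7 over the table. The letters TGCCGC, the core bound by the imprint-protecting factor ZFP57, were searched on both strands. They occurred 2 times in the Mest window, 1 time each in the upstream Grb10 and the Plagl1 windows, and not in the downstream Grb10 and Kcnq1ot1 windows, while 11.6% of all windows held them. Of the 42 windows of the listed genes, some of which overlap within a gene, 9 held them. Windows of 30 of the 38 symbols were in the table, and Kcnq1 and Cdkn1c were not among them.

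A call needed an adjusted p under 0.05 and a difference of 0.5 or more on the log2 scale (edgeR, quasi-likelihood test, Benjamini-Hochberg over all 11974 genes tested). Kcnq1 is left out of the counts that follow, since its fall was used to choose the list. Of the other 18 tested genes, 1 was called, Grb10, which was lower under the MSC-TPr label, and 0.426% of all genes tested were called. DESeq2 also called Plagl1, where 5.28% of all genes were called. The labels separated fully, with no overlap, in 8 of the 18 genes, against 22.6% of all genes tested, and in 17 of 18 without the libraries numbered 1, against 77.5%. Lower in every library labelled MSC-TPr were 5 genes (Grb10, Plagl1, Cdkn1c, Mest and Copg2; 12.1% of all genes), and higher were 3 (Cd81, Ube3a and Sgce; 10.6% of all genes). The median log2 fold change was 0.12 over the 18 genes and 0.01 over all genes tested. Of the 19 genes, 14 reached the level of the filter in all libraries of both labels, Kcnq1 and Cdkn1c did so in all libraries of Ctl MSC alone, Dio3 in all of MSC-TPr alone, and Zrsr1 and Airn in all of neither. The place of Cdkn1c among the 5 lower genes is therefore a description. Genes were also grouped by the parental copy expressed in tissues where they are imprinted, which was not measured in these cells. Of 7 maternal genes (Kcnq1 among the 7) 4 had a log2 fold change above 0, and of 10 paternal genes 5, against 51.1% of all genes tested. The medians were 0.06 and 0.07. Grb10 (−2.35) and Gnas (0.22), listed as tissue dependent in the parental copy expressed, are in neither count.

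**Figure D1:**
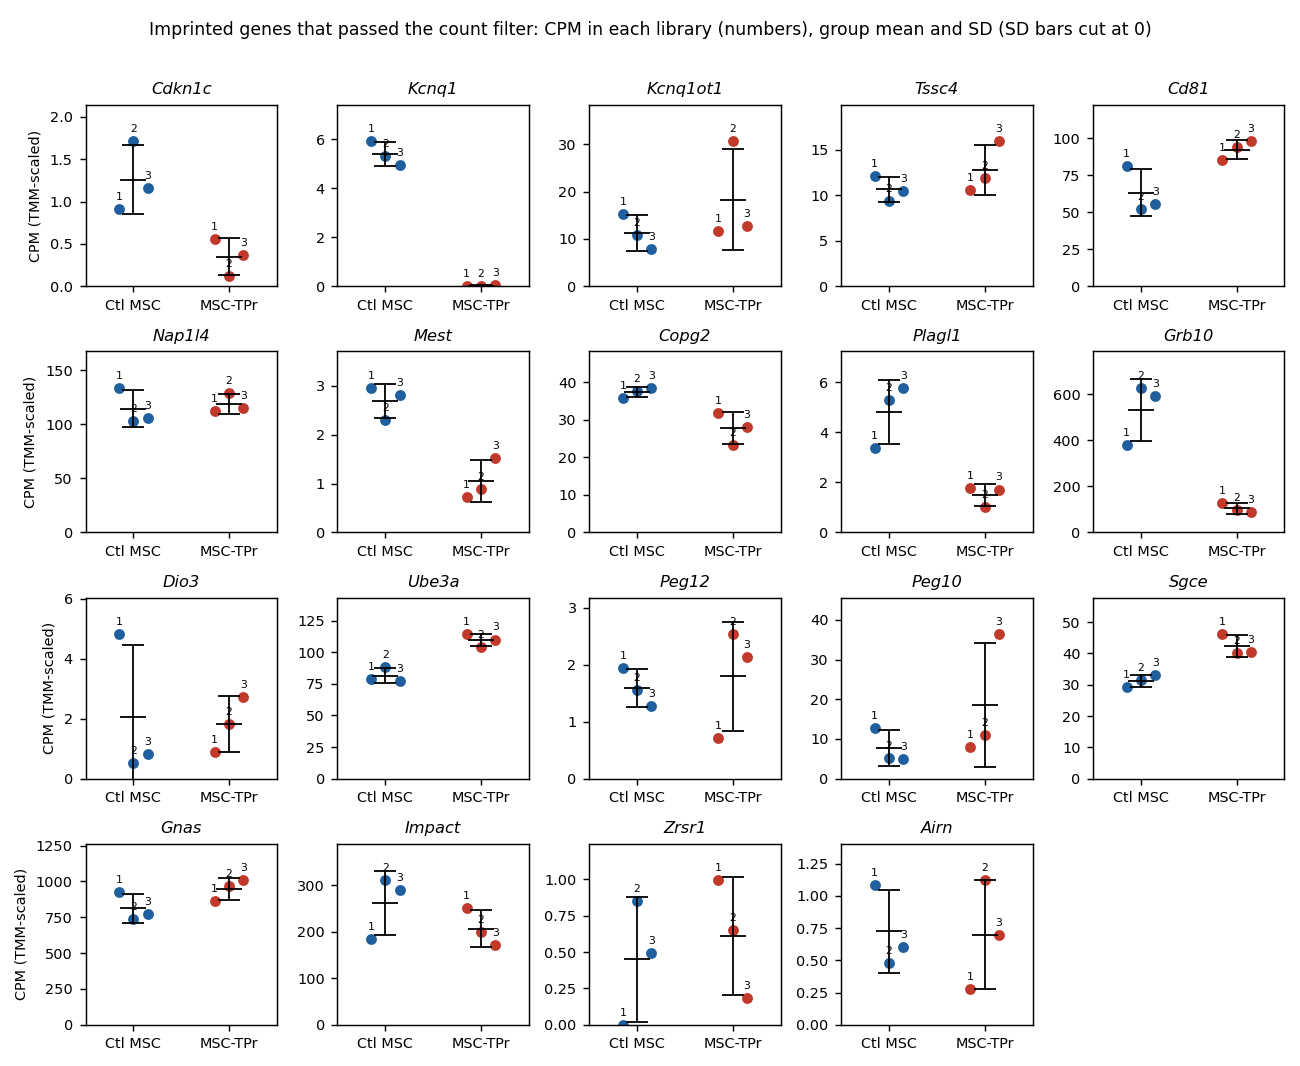
CPM of the 19 tested imprinted genes in each library (points, numbered 1 to 3), with the group mean and SD (n = 3 each, bars cut at 0); each panel has its own axis from 0. The points of Kcnq1, Grb10, Plagl1, Cdkn1c, Mest and Copg2 lie lower in all 3 libraries labelled MSC-TPr, and those of Cd81, Ube3a and Sgce lie higher.

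Kcnq1 encodes the pore-forming subunit of a voltage-gated potassium channel. It lies on chromosome 7 of mm10 from 143106362 to 143427042 on the plus strand. Under the Ctl MSC label it had 98, 100 and 90 reads, or 5.92, 5.34 and 4.96 CPM. Under the MSC-TPr label it had 0, 0 and 1 reads. The libraries labelled Ctl MSC lay close together, and those labelled MSC-TPr were at or under the limit of detection, in the strongly dividing and the weakly dividing libraries alike. The ratio of the summed levels was 305, with an exact 95% interval of 54.3 to 12081 for counting error only.

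Kcnq1ot1, the antisense RNA that starts inside Kcnq1, was not low under the MSC-TPr label. It covers 143203458 to 143296549 on the minus strand and shares 121 exon bases with Kcnq1. It measured 15.2, 10.8 and 7.78 CPM under the Ctl MSC label and 11.6, 30.6 and 12.8 CPM under the MSC-TPr label. The groups overlapped, and MSC-TPr 2 stood above the other 5 libraries. The log2 fold change was 0.70 (SE 0.452, edgeR adjusted p = 0.516), and 0.12 without MSC-TPr 2 (edgeR adjusted p = 0.957). Since it is not stated whether the counting used the strand, unspliced Kcnq1 RNA within this region cannot be told apart from Kcnq1ot1.

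Cdkn1c encodes p57, an inhibitor of cyclin-dependent kinases, and begins 355 kb beyond the start of Kcnq1. It had 15, 32 and 21 reads under the Ctl MSC label (0.906, 1.71 and 1.16 CPM) and 10, 2 and 8 reads under the MSC-TPr label (0.554, 0.118 and 0.371 CPM). The labels did not overlap, at few reads. The log2 fold change was −1.83 (SE 0.574) over 6 libraries, where it was not called, and −2.45 without the libraries numbered 1. Since Cdkn1c reached the level of the filter through the Ctl MSC label alone, these values are given as a description with no p.

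Slc22a18, a transporter gene next to Cdkn1c, had 5, 11 and 3 reads against 1, 2 and 0 reads, and Phlda2, a growth-restraining gene of the placenta, had 0 to 3 reads in each library. Neither passed the filter, and Ascl2, a transcription factor of the placental trophoblast, had no read.

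None of the 3 genes at the borders of the domain, Cd81, Tssc4 and Nap1l4, passed the test over 6 libraries. Cd81, which encodes a tetraspanin of the cell surface and begins 53.6 kb before Kcnq1, measured 81.4, 52.4 and 55.7 CPM under the Ctl MSC label and 85.0, 93.6 and 97.7 CPM under the MSC-TPr label. The groups lay apart, with Ctl MSC 1 close below MSC-TPr 1. Its log2 fold change of 0.54 (SE 0.206) did not pass over 6 libraries (edgeR adjusted p = 0.290). It was 0.83 without the libraries numbered 1 (edgeR adjusted p = 0.0026), where 40.0% of all genes were called. Tssc4 measured 9.40 to 12.1 CPM and 10.6 to 15.9 CPM, with 0.26 (SE 0.235, edgeR adjusted p = 0.646). Nap1l4, a histone chaperone gene, measured 104 to 134 CPM and 113 to 129 CPM, with 0.06 (SE 0.161, edgeR adjusted p = 0.895), and its sign changed when Ctl MSC 2 or MSC-TPr 2 was left out (−0.0088 and −0.00058).

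At the adjoining H19/Igf2 domain, the non-coding growth-linked RNA H19 had 8, 2 and 4 reads under the Ctl MSC label and 1, 7 and 9 under the MSC-TPr label. It did not pass the filter, and the groups overlapped. Igf2, the growth factor gene that shares its enhancers, is not among the 38 and was looked up after these values were seen. It had 19, 12 and 9 reads against 1, 4 and 8 reads and did not pass the filter. Of its exon bases, 62.8% also belong to another gene model of that strand, which is absent from the count table.

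Of 23 genes listed as flanks of the Kcnq1 domain, 15 were tested, 12 with a log2 fold change above 0 (51.1% of all genes), and none was called. At an unadjusted p under 0.05 (edgeR) 1 was lower and 0 were higher, against 8.23% and 6.81% of all genes tested. The lower gene, Tnfrsf26, encodes a receptor of the TNF receptor superfamily and begins 522 kb beyond the start of Kcnq1. It measured 33.0, 116 and 119 CPM under the Ctl MSC label and 26.1, 8.40 and 5.52 CPM under the MSC-TPr label, without overlap (log2 fold change −2.74, SE 0.741, edgeR adjusted p = 0.185). Its neighbours Tnfrsf22 and Tnfrsf23 gave 0.57 (SE 0.394) and 0.05 (SE 0.337). Shank2, the other gene of this list with a large log2 fold change, gave 1.24 (SE 0.770, edgeR adjusted p = 0.502).

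**Figure D2:**
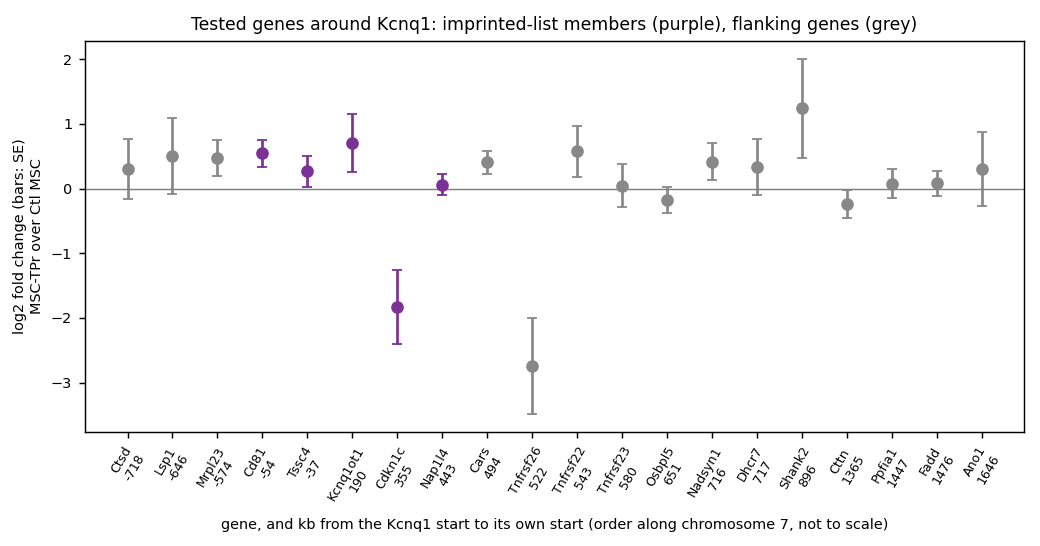
Log2 fold change (MSC-TPr over Ctl MSC, bars SE, n = 3 each) of the tested genes around Kcnq1 in their order along chromosome 7, with the distance in kb from the Kcnq1 start to the start of each; Kcnq1 itself is not drawn. Cdkn1c at −1.83 and Tnfrsf26 at −2.74 stand below the other genes, which lie between −0.23 and 1.24.

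Grb10 showed the clearest difference among the genes that the rule did not cite. It encodes an adaptor protein that binds insulin and IGF-1 receptors and restrains their signalling, and in mice it is expressed from the maternal copy in most tissues and from the paternal copy in neurons. It lies on chromosome 11 from 11930508 to 12038683 on the minus strand, with the CpG-rich start region printed above at its upstream end. It measured 379, 628 and 591 CPM under the Ctl MSC label and 129, 95.8 and 87.2 CPM under the MSC-TPr label, that is 533 ± 134 and 104 ± 22.4 CPM (SD, n = 3 each). The groups lay far apart, and the libraries numbered 1 were the closest to each other. The mean was 5.11-fold lower under the MSC-TPr label, or −2.35 on the log2 scale (SE 0.269, edgeR adjusted p = 0.031).

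The fall of Grb10 kept its direction in each fit and its size within −2.73 to −2.15. Leaving out the libraries numbered 1 gave −2.73 (SE 0.129, edgeR adjusted p = 0.00011), where 40.0% of all genes were called. Taking the cell division score as a covariate gave −2.15 (SE 0.126, edgeR adjusted p = 0.00018), where 12.2% were called. With Ctl MSC 2, Ctl MSC 3, MSC-TPr 2 or MSC-TPr 3 left out it no longer passed, at −2.22, −2.27, −2.29 and −2.24 (edgeR adjusted p = 0.129, 0.129, 0.218 and 0.197). DESeq2 gave −2.34 (DESeq2 adjusted p = 1.0e-11). Ddc, the neighbour of Grb10 that encodes an enzyme of monoamine synthesis, had no read in any library.

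Plagl1 (also known as Zac1), which encodes a zinc-finger transcription factor, measured 3.38, 5.29 and 5.79 CPM under the Ctl MSC label. Under the MSC-TPr label it measured 1.77, 1.01 and 1.72 CPM. The groups did not overlap, and within each label the more strongly dividing libraries had the lower or near-equal values. The mean was 3.22-fold lower, with a log2 fold change of −1.68 (SE 0.362), which did not pass in edgeR (adjusted p = 0.126). It passed in DESeq2 (DESeq2 adjusted p = 0.0029), where 5.28% of all genes were called. Without the libraries numbered 1, where 40.0% were called, it passed at −1.99 (edgeR adjusted p = 0.0034). With the cell division score as a covariate, where 12.2% were called, it passed at −1.48 (edgeR adjusted p = 0.018).

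Mest, which encodes a hydrolase-like protein of the endoplasmic reticulum, and Copg2, which encodes a subunit of the vesicle coat COPI, lie tail to tail on chromosome 6 and share 912 exon bases on opposite strands, so their counts are uncertain in that stretch. Mest measured 2.96, 2.30 and 2.81 CPM under the Ctl MSC label and 0.720, 0.887 and 1.53 CPM under the MSC-TPr label. Copg2 measured 35.9, 37.7 and 38.6 CPM and 31.8, 23.3 and 28.1 CPM. Neither gene overlapped between the groups, with log2 fold changes of −1.35 (SE 0.378, edgeR adjusted p = 0.195) and −0.43 (SE 0.173, edgeR adjusted p = 0.316). Without the libraries numbered 1, where 40.0% of all genes were called, both passed (−1.05 and −0.57, edgeR adjusted p = 0.046 and 0.019). With the cell division score as a covariate, where 12.2% were called, Mest did (−1.49, edgeR adjusted p = 0.028).

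Of the 38 genes, Sgce, Peg10 and Asb4 lie in the Peg10 cluster on chromosome 6, and Sgce and Peg10 passed the filter. Sgce, which encodes a sarcoglycan, measured 29.2, 31.6 and 33.0 CPM under the Ctl MSC label and 46.3, 40.0 and 40.6 CPM under the MSC-TPr label, without overlap and with little spread. The log2 fold change was 0.43 (SE 0.149, edgeR adjusted p = 0.257). Peg10, a retrotransposon-derived gene that starts beside Sgce on the other strand, measured 12.9, 5.29 and 5.02 CPM and 8.08, 10.9 and 36.5 CPM. MSC-TPr 3 alone stood far above the other 5 libraries, and the groups overlapped (1.26, SE 0.673, edgeR adjusted p = 0.434). The value was 0.31 without MSC-TPr 3 (edgeR adjusted p = 0.866). It was 2.21 without the libraries numbered 1 (edgeR adjusted p = 0.020), where 40.0% of all genes were called. Asb4 had 0 to 3 reads in each library.

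In the region deleted in Prader-Willi and Angelman syndromes, Ube3a was the abundant gene. It encodes a ubiquitin ligase and is imprinted in neurons, with expression from both copies in most other cells. It measured 78.9, 88.2 and 76.8 CPM under the Ctl MSC label and 115, 104 and 110 CPM under the MSC-TPr label, without overlap (log2 fold change 0.43, SE 0.134, edgeR adjusted p = 0.224). With the cell division score as a covariate it had 0.46 (edgeR adjusted p = 0.041), under the fold limit of 0.5. Peg12 measured 1.27 to 1.93 CPM and 0.720 to 2.54 CPM (0.18, SE 0.502, edgeR adjusted p = 0.893). Ndn, which encodes necdin, a growth-restraining protein of neurons and stromal cells, had 3, 4 and 3 reads against 0, 0 and 0 reads, which is at the limit of detection. Mkrn3 had 2 to 10 reads in each library. Magel2 and Snrpn had none. Snrpn shares 10.0% of its exon bases on the same strand with Snurf, a gene of the count table, and 27.3% with a gene model absent from it.

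The Dlk1-Dio3 cluster had hardly any reads outside Dio3. Dlk1, Rian and Mirg had 1, 1 and 2 reads in all 6 libraries together, and Meg3 and Rtl1 had none. Dio3, which encodes the enzyme that inactivates thyroid hormone, was the exception, at 4.83, 0.534 and 0.827 CPM under the Ctl MSC label and 0.886, 1.83 and 2.74 CPM under the MSC-TPr label. It was highest in the 3 libraries with high cell division markers, and the groups overlapped (log2 fold change −0.17, SE 0.878, edgeR adjusted p = 0.946). Without the libraries numbered 1 its direction turned (1.76).

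Among the single loci, Gnas, which encodes the stimulatory G protein alpha subunit, was the most abundant of the tested genes per kb of exon, at 72.5 ± 9.22 CPM per kb under the Ctl MSC label and 84.6 ± 6.76 under the MSC-TPr label (SD, n = 3 each). Impact followed over all libraries at 51.1 ± 13.4 and 40.3 ± 7.88 CPM per kb, and Grb10 was second under the Ctl MSC label, at 58.6 ± 14.8, and stood below Gnas, Impact, Nap1l4 and Cd81 under the MSC-TPr label, at 11.5 ± 2.46. Gnas measured 929, 735 and 770 CPM and 863, 966 and 1011 CPM (log2 fold change 0.22, SE 0.172, edgeR adjusted p = 0.592). Impact, a regulator of the stress kinase GCN2, measured 184, 312 and 291 CPM and 251, 199 and 171 CPM. It was lowest in the 3 libraries with high cell division markers, and had −0.34 with all 6 (SE 0.254, edgeR adjusted p = 0.573). It had −0.70 without the libraries numbered 1 (edgeR adjusted p = 0.0076), where 40.0% of all genes were called.

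Zrsr1, a splicing factor gene that lies within Commd1 and shares 412 exon bases with it on the opposite strand, measured 0 to 0.855 CPM and 0.186 to 0.997 CPM, and Airn, the antisense RNA that silences Igf2r, 0.481 to 1.09 CPM and 0.277 to 1.12 CPM. Their log2 fold changes were 0.40 (SE 1.05) and −0.05 (SE 0.601), and both changed sign without the libraries numbered 1 (−0.76 and 0.71). Nnat had 1 to 9 reads in each library, Peg3 and Rasgrf1 had 4 and 1 reads in all, and Zim1 had none.

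**Figure D3:**
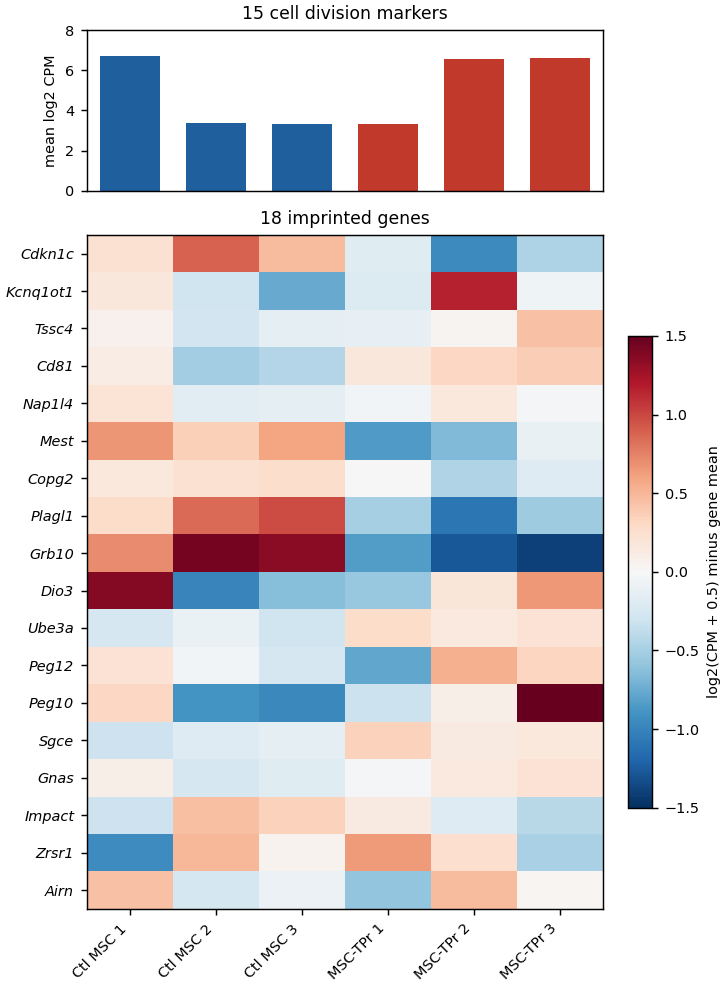
Top, mean log2 CPM of 15 cell division markers in each library (blue, Ctl MSC; red, MSC-TPr). Bottom, log2(CPM + 0.5) of 18 tested imprinted genes minus the gene's mean over the 6 libraries, with the colour scale ending at 1.5 in size (Kcnq1 not drawn), where Grb10, Plagl1, Mest and Cdkn1c divide by label, while Dio3 is high and Impact low in the libraries with high cell division markers.

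The fit with 2 libraries per group, numbered 2 and 3, called 9 of the 18 genes other than Kcnq1, 3 higher (Cd81, Dio3 and Peg10) and 6 lower (Cdkn1c, Copg2, Grb10, Impact, Mest and Plagl1), where 40.0% of all genes tested were called. Over all 6 libraries, Cdkn1c reached the level of the filter through the Ctl MSC label alone. Dio3 reached it in all 3 libraries labelled MSC-TPr and in 2 labelled Ctl MSC. The calls of both genes are given as a description. In these 4 libraries the MSC-TPr label coincides with high cell division markers, and the 2 cannot be told apart. With the cell division score as a covariate over all 6 libraries, 3 of the 18 were called, all lower (Grb10, Mest and Plagl1), where 12.2% of all genes were called.

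**Figure D4:**
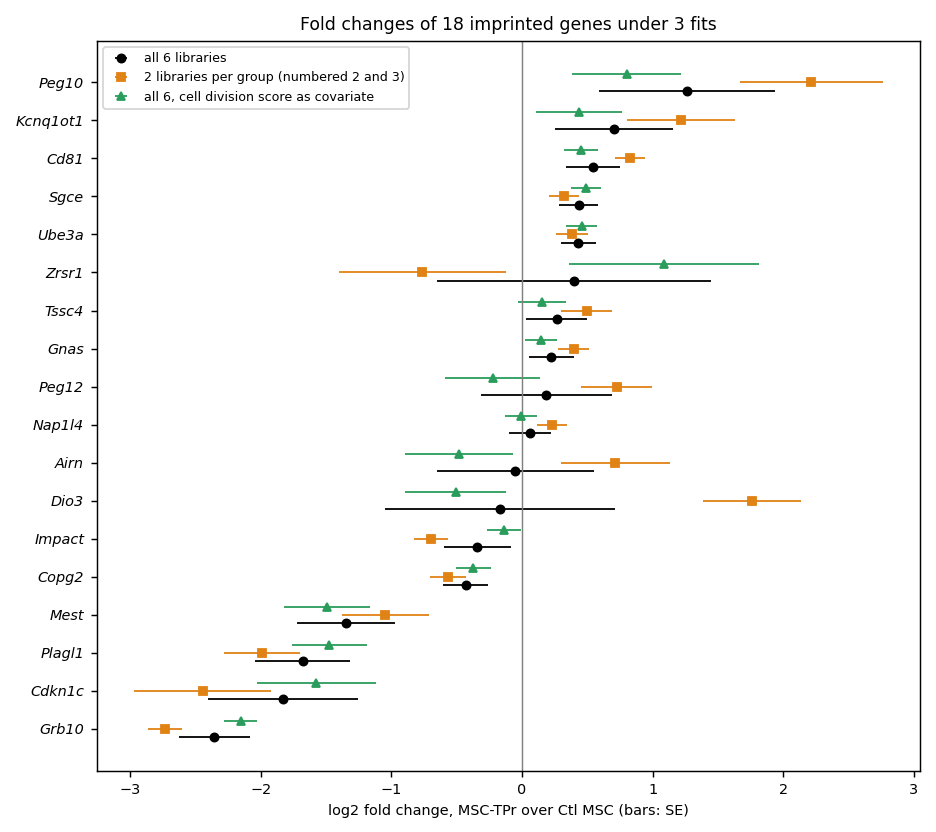
Log2 fold change (MSC-TPr over Ctl MSC, bars SE) of 18 imprinted genes with all 6 libraries, with the 2 libraries per group numbered 2 and 3, and with the cell division score as a covariate; Kcnq1 is not drawn. Grb10, Cdkn1c, Plagl1, Mest and Copg2 lie below 0 in each fit, while Dio3 lies at −0.17, 1.76 and −0.51.

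Of 45 other imprinted genes listed, 43 were in the table and 26 were tested, with 12 above 0, 14 below 0 and none called in edgeR, against 0.426% of all genes tested. At an unadjusted p under 0.05 were 3 higher and 3 lower, against 6.81% and 8.23% of all genes. The lower genes include Ppp1r9a, which passed the filter only through the label where it was high. The gene of this list with the largest log2 fold change was Ppp1r9a, which encodes neurabin, an actin-binding protein that targets protein phosphatase 1, and lies in the Peg10 cluster on chromosome 6 from 4902917 to 5165661. It had 19, 97 and 73 reads under the Ctl MSC label (1.15, 5.18 and 4.03 CPM) and 0 reads in each library labelled MSC-TPr. It was at least 21.5-fold lower, taking 3 reads per library as the limit, and it passed the filter through the Ctl MSC label alone, so no p is given. Htr2a, a serotonin receptor gene, measured 1.63, 0.855 and 0.827 CPM and 1.83, 4.08 and 4.64 CPM (1.67, SE 0.484, edgeR adjusted p = 0.205). Mcts2, a retrogene whose reads can be confused with those of its parent gene, measured 4.22 to 6.22 CPM and 7.70 CPM or more (1.14, SE 0.299, edgeR adjusted p = 0.183).

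Factors that maintain imprints were given by a list of 25 genes, 24 of them tested, with 15 above 0, 9 below 0 and none called, against 0.426% of all genes tested. At an unadjusted p under 0.05 (edgeR) were 1 higher and 3 lower, against 6.81% and 8.23% of all genes. The lower genes include Tet1, which passed the filter only through the label where it was high. Tet1, which oxidises methylated cytosine, measured 0.665, 1.60 and 1.54 CPM under the Ctl MSC label and 0.221, 0.296 and 0.371 CPM under the MSC-TPr label. The labels did not overlap (log2 fold change −2.07, SE 0.498). Tet1 had 4, 5 and 8 reads under the MSC-TPr label and passed the filter through the Ctl MSC label alone, so no p is given. Uhrf1, which recruits the maintenance methyltransferase at replication, followed the cell division markers, with 72.0, 9.83 and 9.76 CPM and 7.97, 75.8 and 75.8 CPM (0.80, SE 1.06, edgeR adjusted p = 0.772). Arid4b, a chromatin factor linked to imprint control, measured 81.0, 139 and 136 CPM and 90.2, 62.2 and 61.5 CPM (−0.74, SE 0.271, edgeR adjusted p = 0.282).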

How the data were processed

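Polyadenylated RNA was sequenced with a stranded kit in 6 libraries, 3 under each of the labels Ctl MSC and MSC-TPr. The submitters' processing notes name CASAVA 1.8.2, Trimmomatic 0.35 and TopHat2 2.1.0 with mm10, and the authors counted reads on genes with Htseq-count. The deposited values are raw counts per gene symbol; the gene annotation and the strand setting are not given in the sources used here. Reads on genes were 79.2% to 86.2% of the listed reads, and the summary lines of Htseq-count that hold the rest were left out.

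The 2 labels were compared by the quasi-likelihood test of edgeR 4.0.16 in R 4.3.3, after TMM scaling and filterByExpr and without covariates, with Benjamini-Hochberg adjustment. A call needed both an adjusted p under 0.05 and a difference of 0.5 or more on the log2 scale. The SE is the log2 fold change divided by the square root of F. Alternatives were DESeq2 1.42.0, RLE normalization, no filter or at least 10 reads in every library, the replicate number as a block, each library left out, 2 libraries per group, and the mean log2 CPM of 15 cell division markers as a covariate. Both count tests were first run on simulated data, and the outcome of that run is not given here. Coordinates and exon overlaps came from GENCODE M21 (mm10) and start regions from RefSeq (GRCm38.p6). CPM per kb used the union of exons. Named genes were all 38 members, with full statistics for those tested that were called, did not overlap or lay in the Kcnq1/H19 domain, and up to 3 genes of each other list with the largest log2 fold changes. No p is given for Kcnq1, nor for Cdkn1c, Ppp1r9a and Tet1, which passed the filter through the Ctl MSC label alone. The genes and lists were chosen with earlier results of these data known.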

Additional observations from a re-analysis of the deposited data

How the results depend on the processing

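Of the 19 imprinted genes tested, 14 kept the sign of their log2 fold change under every alternative that tested them, and 5 did not. The 14 include Kcnq1, whose fall chose the list, and Cdkn1c, which passed the filter through the Ctl MSC label alone. The signs of these genes are a description. With the libraries left out in turn, Dio3 ranged from −0.63 to 1.42, Zrsr1 from −0.17 to 1.23, Airn from −0.54 to 0.36, Nap1l4 from −0.0088 to 0.19 and Peg12 from −0.14 to 0.56. The sign also turned for Dio3 (0.47) with the replicate block, for Dio3 (1.76), Zrsr1 (−0.76) and Airn (0.71) with 2 libraries per group, and for Nap1l4 (−0.0078) and Peg12 (−0.23) with the cell division score. All genes called numbered 51 in edgeR over 6 libraries, 683 with DESeq2, 31 with at least 10 reads in every library, 4854 with 2 libraries per group, 1457 with the cell division score and 0 to 108 with a library left out. Imprinted genes called, Kcnq1 counted although its fall chose the list, numbered 2 over 6 libraries, 1 with at least 10 reads in every library (a filter that removes Kcnq1), 10 with 2 libraries per group, 4 with the cell division score and 0 to 2 with a library left out. Leaving out Ctl MSC 2, Ctl MSC 3 or MSC-TPr 3 left 0 calls in edgeR (927, 925 and 1547 genes at an unadjusted p under 0.05), MSC-TPr 2 left 1, MSC-TPr 1 left 44 and Ctl MSC 1 left 108. The cause of these differences was not tested. Imprinted genes whose groups did not overlap, Kcnq1 again left out, numbered 8 of 18 over 6 libraries (22.6% of all genes). With 2 libraries per group they numbered 17 of 18 (77.5%). With a library left out and Kcnq1 counted they ran from 9 to 16 (25.2% to 47.5% of all genes). The 16 were without Ctl MSC 1 (47.5%), and 11 were found without MSC-TPr 1 (41.6%).

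Same-numbered libraries deviated from their group means in opposite directions, with correlations across genes of −0.765, −0.594 and −0.604 for numbers 1, 2 and 3. Ctl MSC 2 with MSC-TPr 3 gave −0.577, and Ctl MSC 1 with MSC-TPr 2 gave 0.622. The signs follow the split in cell division markers, so whether the numbers pair the libraries could not be decided from them. With the replicate block edgeR called 0 genes in all and 0 imprinted genes, while 776 genes had an unadjusted p under 0.05. Counts under about 10 reads per library limited H19, Phlda2, Slc22a18, Ndn and Mkrn3, for which a difference could not be shown at this depth.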
